A study of Mus musculus with 2 samples.

Results

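The 10 genes described here encode secreted antimicrobial and other defence proteins of the airspace. They are the lysozymes Lyz1 and Lyz2, the iron-withholding proteins Lcn2 and Ltf, and the whey acidic protein (WAP) family members Slpi and Wfdc2. The others are the lectin Reg3g, the BPI fold proteins Bpifa1 and Bpifb1, and the glycoprotein Lrg1. These 10 genes were chosen by name, with earlier results of these data known. All 10 were found among the 24369 gene rows of the expression table. The study profiled sorted type II pneumocytes (alveolar type 2 cells, the surfactant-making cells of the lung) of wild-type C57BL6 mice over postnatal time. Of its 2 libraries, 1 was made at 7 days after birth (P7) and 1 at 28 days (P28). The labels give no sort marker, no number of animals and no treatment that sets the ages apart. Each gene has 1 RPKM value per library, which divides reads by gene length and by the mapped reads of the library.

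Lysozymes cut the peptidoglycan of bacterial cell walls, and type 2 cells, like macrophages, are known to make them and store them in secretory granules. Lipocalin 2 and lactoferrin keep iron from bacteria, the first by binding siderophores and the second by binding the metal itself. Proteins with WAP domains inhibit proteases, BPI fold proteins bind lipids and bacterial lipopolysaccharide in airway fluid, and Reg3 lectins bind cell walls of Gram-positive bacteria. Many of these proteins are known mainly from club, goblet and gland cells of the conducting airways or from neutrophils rather than from type 2 cells.

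The spacing of the lowest RPKM values gave about 17600000 reads in the P7 denominator and 24600000 in the P28 one. Read numbers below come from that spacing, and each interval is a 95% exact (Clopper-Pearson) one on the ratio of RPKM and holds for counting error alone. With 1 library per age, no difference has a replicate check and no p-value is given, so "higher" and "lower" compare these 2 libraries. Both libraries held the type 2 markers, with Sftpc (surfactant protein C) the most abundant gene in each. Xist was at 52.7 RPKM at P7 and 0.245 at P28, and the Y-linked gene Ddx3y had 0 reads at P7 and 454 at P28. Age and sex therefore cannot be told apart here. All RPKM values summed to 108758 (P7) and 143071 (P28). When both libraries were rescaled to the same total, the median log2 ratio over the 9653 genes that reached 1 RPKM in either library went from -0.08 to -0.37, and results that depend on this are given on both scales.

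The defence genes spanned the whole range of expression, and lysozyme made up most of it. The 10 genes together held 2.62% of all RPKM at P7 and 5.04% at P28. The lysozyme pair made up 85.1% of that sum at P7 and 90.4% at P28, while the other 8 genes together went from 424 to 691 RPKM. Lyz2 alone went from 57.5% to 80.5% of the sum, and Lyz1 from 27.6% to 9.92%. At P7 the order per length was Lyz2, Lyz1, Wfdc2, Lcn2, Reg3g, Bpifb1, Lrg1, Slpi, Bpifa1 and Ltf. The order at P28 was the same for the first 5, after which Bpifa1 came sixth, ahead of Lrg1, Bpifb1, Slpi and Ltf.

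**Figure D1:**
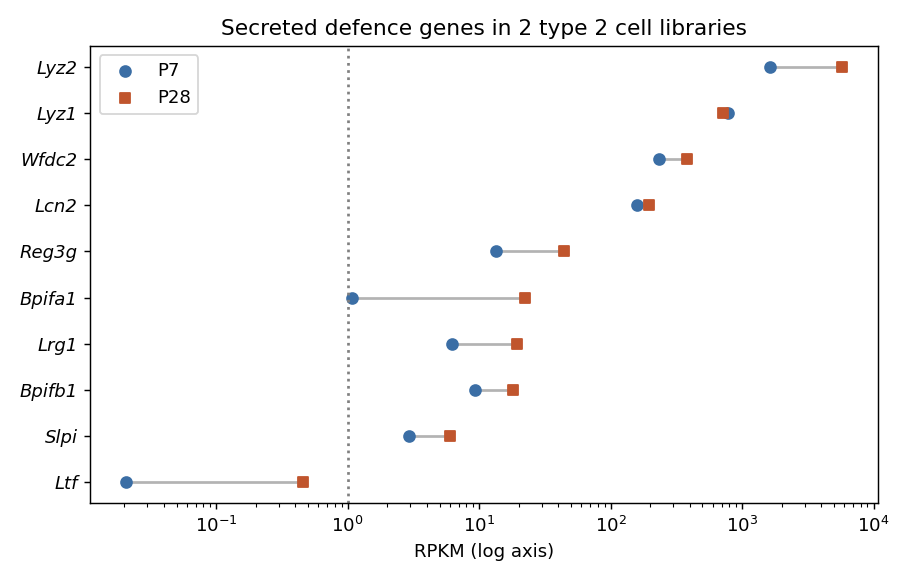
RPKM (log axis) of the 10 genes at P7 (circles) and P28 (squares), 1 library each, with a dotted line at 1 RPKM. Lyz1 is the one gene whose P28 value lies below its P7 value, Bpifa1 moves from 1.08 to 22.2 RPKM, and Ltf stays under 1 RPKM in both libraries.

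Of the 10 genes, 9 reached 1 RPKM in at least 1 library, and Ltf did not. On the scale of log2(RPKM + 1), 4 of the 9 were at least 2-fold higher at P28 (Bpifa1, Lyz2, Reg3g and Lrg1) and 0 were at least 2-fold lower. Over all 9653 genes, 1.18% were at least 2-fold higher and 1.96% at least 2-fold lower as deposited. With both libraries rescaled to the same total, 4 of the 9 were again higher and 0 lower, beside 0.673% and 4.59% of all genes. By log2 ratio among the 9653 genes, Bpifa1 ranked 3 from the top, Lyz2 23, Reg3g 31 and Lrg1 42. Bpifb1 ranked 154, Slpi 182, Wfdc2 265, Lcn2 1221 and Lyz1 5475.

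**Figure D2:**
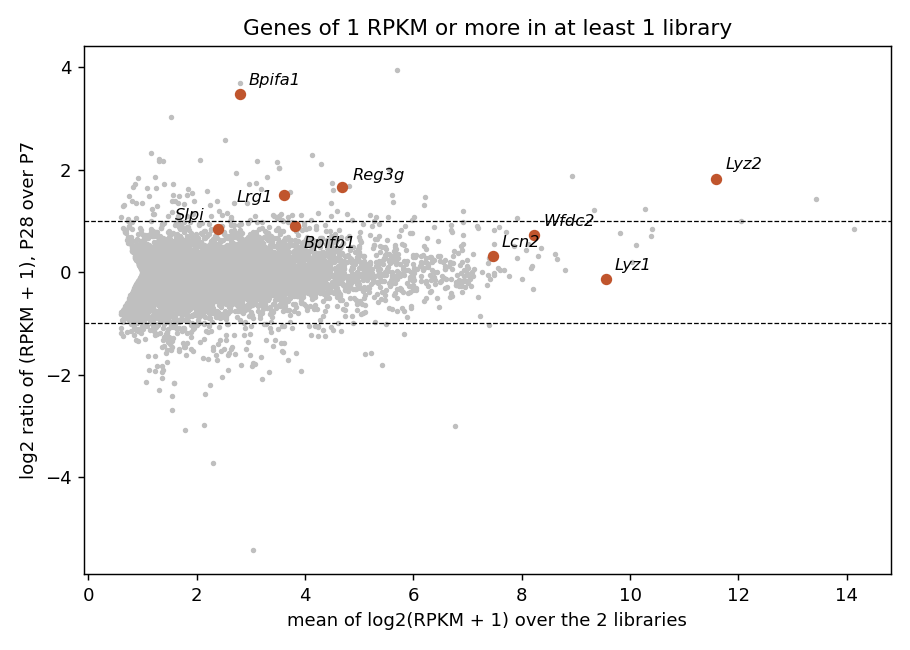
Log2 ratio of (RPKM + 1), P28 over P7, against the mean of log2(RPKM + 1) for the 9653 genes that reached 1 RPKM in either library (grey), with 9 of the 10 defence genes in colour and dashed lines at 2-fold. Bpifa1, Lyz2, Reg3g and Lrg1 lie above the upper line, and Lyz1 lies just below 0.

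Lyz2 and Lyz1 are neighbouring copies on chromosome 10 of GRCm38, both protein coding and on the minus strand. Lyz2 (ENSMUSG00000069516.8) lies at 117277331 to 117282321 and Lyz1 (ENSMUSG00000069515.6) at 117287797 to 117292868, with 5475 bases between them. Their coding sequences have the same length of 447 bases and are 95.1% identical, with 22 differing positions. Of these, 13 fall in one stretch of 90 bases, which is shown because reads can be told apart there and because nothing states how shared reads were counted. The stretch runs from position 43 to 132 of each coding sequence, counted from 1 at the first base of the start codon, and capitals mark the differing bases.
Lyz1: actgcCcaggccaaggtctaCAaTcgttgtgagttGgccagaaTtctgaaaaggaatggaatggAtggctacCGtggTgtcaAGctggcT
Lyz2: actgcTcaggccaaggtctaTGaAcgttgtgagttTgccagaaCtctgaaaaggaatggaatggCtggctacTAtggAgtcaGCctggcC

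Over the whole transcripts, of 1263 bases for Lyz1 and 1316 for Lyz2, the aligned bases were 96.0% identical. Of all 30-base words of the Lyz1 transcript, 35.4% also stood in Lyz2, and of 100-base words 2.06% did. The same shares for Lyz2 in Lyz1 were 34.0% and 1.97%. No transcript of another gene held a 30-base word of either. Of the other 8 defence genes, Reg3g shared 0.809% of its 30-base words with Reg3b, which is listed at 0 in both libraries, and the other 7 shared none with any gene. How many reads fell on words that both lysozymes hold is not known from RPKM values, so Lyz1 and Lyz2 are given apart and summed.

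Lyz2, the lysozyme that macrophages and type 2 cells are known to express, was 1635 RPKM at P7 (about 37900 reads) and 5809 RPKM at P28 (about 188012 reads). It had rank 4 of all genes in both libraries. The ratio was 3.55 (3.51 to 3.59), a log2 ratio of 1.83 as deposited and 1.43 with equal totals. Lyz1, known as the lysozyme of intestinal Paneth cells, was 785 RPKM at P7 and 716 at P28, with about 17459 and 22243 reads. Its ratio was 0.912 (0.894 to 0.931), a log2 ratio of -0.13 as deposited and -0.53 with equal totals, and its rank went from 10 to 13. The paralogs thus lay on opposite sides of 1 as deposited, Lyz2 far above and Lyz1 slightly below. Within a library, which no scaling between libraries changes, Lyz2 was 2.08 times Lyz1 at P7 (2.05 to 2.12) and 8.11 times at P28 (8.0 to 8.23). That ratio was 3.89 times larger at P28. Summed, the pair had 2420 RPKM at P7 and 6525 at P28, a ratio of 2.70 and a log2 ratio of 1.43 (1.04 with equal totals). The 8 other listed genes of the lysozyme-like family (such as Lyzl4, Spaca3 and Lyg1) were at 0 in both libraries. The nearest neighbours of 1 RPKM or more on each side of the pair, Yeats4 and Cpsf6, had log2 ratios of -0.16 and -0.11. Between Yeats4 and Lyz2 lies 9530003J23Rik, which is not on that list and had 0.792 RPKM at P7 and 0.400 at P28.

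Over the 250 bases before the RefSeq starts, the aligned bases of the lysozyme genes were 80.6% identical, with 48 mismatches and 4 unpaired bases. All of these differences lie from 250 to 51 bases before the start, where identity was 75.8%, and the bases nearer to the start were identical. For Lyz2 nearly all of those nearer bases lie inside the gene as placed above (to 117282321), since its RefSeq start lies further in. The Lyz1 window begins just outside its gene. The stretches from 250 to 51 bases before the start are shown because the paralogs differ in their ratio between ages. They come from RefSeq on GRCm38.p6, minus strand, chr10:117292919-117293118 for Lyz1 and chr10:117282323-117282522 for Lyz2, 5′ to 3′, with the bases that differ or are unpaired in capitals.
Lyz1: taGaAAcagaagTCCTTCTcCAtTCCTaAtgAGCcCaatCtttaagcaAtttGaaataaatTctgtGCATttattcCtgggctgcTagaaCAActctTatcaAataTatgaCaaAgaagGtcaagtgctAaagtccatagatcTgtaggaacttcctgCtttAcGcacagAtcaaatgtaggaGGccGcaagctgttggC
Lyz2: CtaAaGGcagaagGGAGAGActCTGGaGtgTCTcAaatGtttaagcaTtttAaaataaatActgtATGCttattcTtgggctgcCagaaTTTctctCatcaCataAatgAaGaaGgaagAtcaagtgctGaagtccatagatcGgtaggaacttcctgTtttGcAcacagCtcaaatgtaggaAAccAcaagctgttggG

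A C/EBP word, TTNNGCAA, searched on both strands of the 250 bases before the start, stood in Lyz1 (209 to 202 bases before the start), Lcn2, Ltf and Slpi, and in 9.55% of 27025 promoters. The Lyz2 window did not hold it. The windows are set by RefSeq starts. Those of Lcn2, Slpi and Wfdc2 lie inside the genes as placed below, and those of Ltf and Lrg1 overlap them in part. Words for STAT (TTCNNNGAA, in 7.18% of promoters), FOXA (TGTTTAC, 3.09%), PU.1 (GAGGAAGT, 2.44%) and NF-kB (0.337%) stood in 0 of the 10 windows. A match or its absence is given as a description of the letters only and says nothing of binding.

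The iron-withholding genes differed from each other in level by several orders of magnitude. Lcn2 (lipocalin 2, chromosome 2, 32384633 to 32388252, minus strand) was 158 RPKM at P7 and 196 at P28, about 2547 and 4407 reads. Its ratio was 1.24 (1.18 to 1.30), and its log2 ratio of 0.31 as deposited became -0.086 with equal totals, so its direction depends on the scale. Ltf (lactoferrin, chromosome 9, 111019271 to 111042767, plus strand) was 0.0207 RPKM at P7, which is 1 read, and 0.460 RPKM at P28, which is 31 reads. The ratio of 22.2 has an interval of 3.70 to 905. Lactoferrin reads were thus few at both ages, and the P7 value lies under the floor of 3 reads.

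Of the 12 listed genes of iron handling in the table, 6 reached 1 RPKM, among them Lcn2. Their median log2 ratio was 0.44 (0.05 with equal totals), and 0.57 for the 5 other than Lcn2. Of the 6, 1 was at least 2-fold higher and 1 at least 2-fold lower, beside 1.18% and 1.96% of all genes. The median over all genes was -0.08. The higher gene was Hp (haptoglobin, which binds free haemoglobin), at 29.6 and 77.7 RPKM, with a ratio of 2.62 (2.41 to 2.86). With equal totals its log2 ratio was 0.97, just under 2-fold. The lower gene was Trf, the plasma iron carrier transferrin and a relative of lactoferrin, 2.33-fold lower with 84.9 and 36.4 RPKM. Fth1 (ferritin heavy chain) had 105 and 196 RPKM, and Tfrc (transferrin receptor) 16.9 and 25.6.

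The defining neutrophil markers were at or near 0 in both libraries. Of 17 listed neutrophil markers in the table, 7 were at 0 in both, including Mpo, Elane and S100a9, and S100a8 had 5 reads at P7 and 0 at P28. Leaving out Lcn2 and Ltf, which are on that list, the markers summed to 2.01 RPKM at P7 and 1.29 at P28.

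The WAP genes were both higher at P28 as deposited, at very different levels. Wfdc2 (chromosome 2, 164562413 to 164568510, plus strand), an epithelial secreted WAP protein also known as HE4, was 233 RPKM at P7 and 384 at P28, about 3491 and 8024 reads. Its ratio was 1.65 (1.58 to 1.71), a log2 ratio of 0.72 as deposited and 0.32 with equal totals, and it ranked 25 and 17 among all genes. Slpi (chromosome 2, 164354070 to 164389095, minus strand), the inhibitor of neutrophil elastase, was 2.92 RPKM at P7 and 6.03 at P28, from 45 and 130 reads. Its ratio was 2.07 (1.46 to 2.97). On the log2(RPKM + 1) scale it was 0.84 as deposited, under the 2-fold line, and 0.53 with equal totals.

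Both genes lie in 1 region of chromosome 2 with 173317 bases between them, and the 5 genes of 1 RPKM or more in that gap had log2 ratios from -0.60 (Pigt) to 0.32 (Sdc4). Of 24 listed WAP family genes and their neighbours in the cluster, 14 were at 0 in both libraries and 3 reached 1 RPKM. Beside Wfdc2 and Slpi this was Wfdc1, which was 7.14-fold lower at P28, with 2.23 and 0.313 RPKM from 54 and 11 reads. On the log2(RPKM + 1) scale it was the one WAP gene at least 2-fold apart, at -1.30. By plain ratio as deposited, Slpi was also just over 2-fold. Over all genes 1.18% were higher and 1.96% lower on that log2 scale.

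Reg3g (chromosome 6, 78466269 to 78468872, minus strand), the antibacterial lectin, was 13.4 RPKM at P7 and 44.5 at P28, about 182 and 845 reads. Its ratio was 3.32 (2.83 to 3.92), with a log2 ratio of 1.66 as deposited and 1.28 with equal totals. It was the single expressed gene of its family, since the other 6 Reg genes in the table were at 0 in both libraries.

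The BPI fold gene Bpifa1 had the largest ratio among the 9 genes that reached 1 RPKM. Bpifa1 (also called SPLUNC1, chromosome 2, 154142880 to 154149219, plus strand) was 1.08 RPKM at P7, from about 21 reads, and 22.2 RPKM at P28, from about 604. Its ratio was 20.6 (13.4 to 33.5), a log2 ratio of 3.48 as deposited and 3.19 with equal totals. Bpifb1 (LPLUNC1, chromosome 2, 154190818 to 154220369, plus strand), which lies 41598 bases away, was 9.25 RPKM at P7 and 18.2 at P28. Its ratio was 1.96 (1.70 to 2.26), a log2 ratio of 0.90 as deposited and 0.54 with equal totals. Bpifa1 was thus 11.7% of the level of Bpifb1 at P7 and 122% at P28.

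Another gene of that cluster, Bpifb5, lay next to Bpifb1 and had 15.9 RPKM at P7 and 9.07 at P28, a log2 ratio of -0.74 as deposited and -1.11 with equal totals. Of 16 BPI fold family genes, 10 were at 0 in both libraries and 5 reached 1 RPKM. The median log2 ratio of those 5 was 0.22 (-0.15 with equal totals). As deposited, Bpifa1 was the 1 gene at least 2-fold higher and 0 were lower, beside 1.18% and 1.96% of all genes. The 3 measured genes other than Bpifa1 and Bpifb1 had a median of -0.03, with 0 of them 2-fold apart. The lipopolysaccharide-binding protein gene Lbp had 14.8 and 17.4 RPKM, with a ratio of 0.22 (log2) that turned to -0.15 once totals were equal. Pltp, the phospholipid transfer protein gene, had 3.74 and 3.63 RPKM. Neighbours in the cluster therefore did not share 1 direction. The BPI fold protein Bpifa1 is known to regulate the epithelial sodium channel, whose subunit genes had 23.3 and 29.3 RPKM (Scnn1a), 6.38 and 4.90 (Scnn1b) and 30.8 and 12.5 (Scnn1g, 2.47-fold lower).

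The 250 bases before the starts of Reg3g and Bpifa1 are shown because these genes had high ratios and both windows held 2 of the words searched, CTCAAG (an NKX2-1 word, in 13.6% of 27025 promoters) and TATAAA (13.0%). No other defence gene held either word. The windows are from RefSeq on GRCm38.p6, chr6:78468875-78469124 on the minus strand and chr2:154142630-154142879 on the plus strand, 5′ to 3′, with both words in capitals on either strand.
Reg3g: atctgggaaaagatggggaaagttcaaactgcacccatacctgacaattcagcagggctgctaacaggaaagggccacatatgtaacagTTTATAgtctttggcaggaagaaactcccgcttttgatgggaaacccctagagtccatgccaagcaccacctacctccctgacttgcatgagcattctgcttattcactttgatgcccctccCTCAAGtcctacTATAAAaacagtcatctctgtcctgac
Bpifa1: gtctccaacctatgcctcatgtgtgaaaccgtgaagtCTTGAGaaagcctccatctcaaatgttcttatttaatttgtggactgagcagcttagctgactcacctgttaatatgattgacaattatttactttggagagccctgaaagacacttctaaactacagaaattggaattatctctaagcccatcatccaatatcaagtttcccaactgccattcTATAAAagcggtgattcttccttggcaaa

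A TATAAA word stood 27 to 22 bases before the Reg3g start and 29 to 24 bases before the Bpifa1 start, and Reg3g held another on the other strand, 161 to 156 bases before the start. The CTCAAG word lay 39 to 34 bases before the start in Reg3g, and on the other strand 213 to 208 bases before it in Bpifa1.

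Lrg1 (leucine-rich alpha-2-glycoprotein, chromosome 17, 56119678 to 56122001, minus strand) modulates TGF-beta signalling through endoglin and is made in the acute phase response. It was 6.21 RPKM at P7 and 19.5 at P28, from 154 and about 676 reads. Its ratio was 3.15 (2.64 to 3.77), a log2 ratio of 1.51 as deposited and 1.15 with equal totals. Endothelial cells also express Lrg1. Without Lrg1 the endothelial markers summed to 51.6 RPKM at P7 and 19.6 at P28. Of 10 measured, 6 were at least 2-fold lower, beside 1.96% of all genes. The part of endothelial cells in the Lrg1 values was not tested. Eng, the endoglin gene, had 1.65 and 1.04 RPKM.

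Of 20 listed acute phase genes, 5 reached 1 RPKM, with a median log2 ratio of 1.36 (0.97 with equal totals). Of the 5, 3 were at least 2-fold higher (2 with equal totals) and 0 lower. Over all genes 1.18% were higher and 1.96% lower (0.673% and 4.59% with equal totals). The 3 higher genes were Lrg1, Hp and Itih4, an inter-alpha-trypsin inhibitor chain. Itih4 had 4.63 RPKM at P7 and 22.1 at P28 (ratio 4.78, interval 4.20 to 5.49). C3, the central complement component, had 22.1 and 25.9 RPKM, and its direction depended on the scale (log2 0.22 as deposited, -0.16 with equal totals). Saa3, a serum amyloid gene, had 4 reads at P7 and 1 at P28.

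Other secreted defence genes gave a mixed picture. Of 47 listed, which include Bpifa1, 21 reached 1 RPKM, with a median log2 ratio of 0.85. Of the 21, 7 were at least 2-fold higher and 2 lower, beside 1.18% and 1.96% of all genes. Equal totals left 4 higher and 2 lower, beside 0.673% and 4.59% of all genes, and a median of 0.45. Beside Bpifa1, the higher genes were Muc5b (a gel-forming mucin, ratio 4.03, 3.74 to 4.33), Cxcl17 (a mucosal chemokine, 3.56, 2.66 to 4.83), Tff2 (a trefoil peptide, 4.65, 2.24 to 11.6), Sftpa1 (surfactant protein A, 2.35), Rnase4 (2.31) and Prdx6 (2.22). With equal totals Sftpa1 had a log2 ratio of 0.84, under the 2-fold line, and Rnase4 and Prdx6, with smaller ratios, also fell under it. The lower genes were Retnla, a resistin-like protein, with 309 and 37.6 RPKM and thus 8.22-fold lower, and Chil4, a chitinase-like protein, at 11.3 and 0.565. Chil4 has close paralogs whose reads may be shared.

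Genes known to act upstream of the defence genes were also listed. They include receptors of IL-17, IL-22 and IL-6 family cytokines and the factors STAT3, NF-kB and C/EBP. Of 38 listed, 29 reached 1 RPKM, with a median log2 ratio of 0.23 (-0.11 with equal totals). Of the 29, 0 were at least 2-fold higher or lower. Over all genes the shares were 1.18% and 1.96%, so a count of 0 is near them and is no result about these genes. Among those of 5 RPKM or more, the largest differences were in Osmr (oncostatin M receptor, 5.51 and 9.23 RPKM), Ehf (an epithelial ETS factor, 7.22 and 11.8), Tnfrsf1a (a TNF receptor, 6.11 and 4.09) and Nfkbia (4.60 and 6.67). The IL-17 receptor gene Il17ra had 5.66 and 5.11 RPKM and Stat3 11.5 and 14.0, in log2 0.26 as deposited and -0.11 with equal totals. Of 26 listed targets and partners of the defence proteins, 19 reached 1 RPKM, with a median of -0.21 (-0.51 with equal totals). Of the 19, 0 were higher and 1, Scnn1g, was lower, counts too small to set apart from the shares over all genes. Lrp2, a receptor that can take up lipocalin 2, had 8.12 and 16.9 RPKM, a log2 ratio of 0.98, and Elane, the elastase that Slpi inhibits, was at 0 in both libraries.

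Airway and immune markers were measured beside these results. Club cell and other secretory airway markers summed to 8064 RPKM at P7 and 20391 at P28, and most of each sum was Scgb1a1. The median log2 ratio of the markers measured was 0.82 (0.42 with equal totals). Of 11 measured, 5 were at least 2-fold higher (2 with equal totals) and 0 lower. Over all genes 1.18% were higher and 1.96% lower (0.673% and 4.59% with equal totals). None of the 14 markers on this list was at 0 in both libraries. Among them Scgb1a1, the club cell secretory protein gene, was 6764 RPKM at P7 and 18104 at P28, a ratio of 2.68, and Scgb3a1 went from 12.2 to 203 RPKM. Goblet and gland markers summed to 26.9 RPKM at P7 and 27.0 at P28, with Muc5b and Tff2 higher and Clca1 lower (18.8 and 6.53 RPKM), and the gland genes Lpo, Pip and Prr9 at 0 in both. Bpifa1, Bpifb1, Reg3g and Wfdc2 are also made by airway secretory cells, whose part in these results was not tested. In sorted bulk RNA, more cells of a type and more RNA per cell cannot be told apart.

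Lyz2 was also set beside macrophage markers. Of 24 macrophage and monocyte markers, 7 were at 0 in both libraries (Adgre1, C1qa, C1qb, C1qc, Cx3cr1, Marco and Siglecf). Without Lyz2 the rest summed to 16.2 RPKM at P7 and 21.5 at P28, against 1635 and 5809 RPKM for Lyz2. Most of that sum was Plet1 (7.23 and 9.85 RPKM) and Ly6c2 (4.80 and 7.35 RPKM). Their ratios were 1.36 (1.15 to 1.61) and 1.53 (1.14 to 2.06), in log2 0.05 and 0.19 with equal totals. Csf1r had 2.23 and 1.49 RPKM from 152 and 142 reads, a ratio of 0.669 (0.528 to 0.847). Of the 5 measured markers other than Lyz2, 0 were 2-fold apart on the log2(RPKM + 1) scale. Over all genes, 1.18% were higher and 1.96% lower. By plain ratio Cd68, near the limit of 1 RPKM, was over 2-fold higher at P28, with 0.455 and 1.08 RPKM. Its ratio was 2.36 (1.14 to 5.38), from 10 and 33 reads.

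The defence genes were also set beside markers of type 2 and club cells in the same library, as ratios that do not depend on scaling between libraries. Relative to Sftpc, Lyz2 was 12.3% of its level at P7 and 24.1% at P28, a 1.97-fold larger share. Lyz1 was 5.88% and 2.97% of Sftpc, and the summed lysozymes were 18.1% and 27.1%, a 1.49-fold larger share. Bpifa1 (11.4-fold), Reg3g (1.84-fold), Lrg1 (1.74-fold), Slpi (1.15-fold) and Bpifb1 (1.09-fold) also had larger shares relative to Sftpc at P28, while Wfdc2 (0.912) and Lcn2 (0.687) had smaller ones. Relative to Scgb1a1, whose own ratio was larger, Lyz2 (1.33-fold), Reg3g (1.24-fold) and Lrg1 (1.18-fold) had slightly larger shares at P28 and Bpifa1 a 7.68-fold larger one. Wfdc2 (0.615), Lcn2 (0.463), Bpifb1 (0.734), Slpi (0.773) and Lyz1 (0.341) had smaller shares relative to Scgb1a1. Slpi, Bpifb1 and the lysozyme sum thus read differently against the 2 references. The summed lysozymes were 35.8% of Scgb1a1 at P7 and 36.0% at P28.

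**Figure D3:**
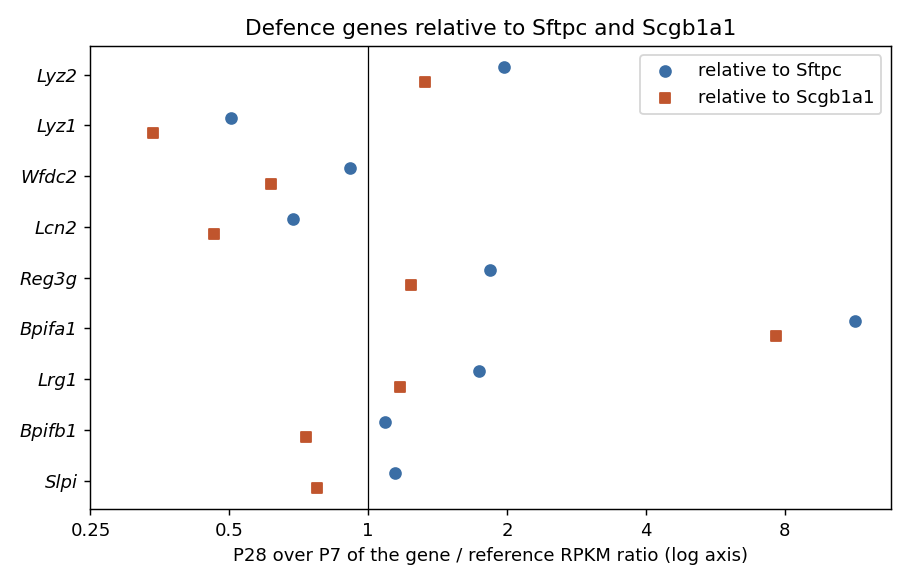
Change from P7 to P28 in the ratio of each gene to Sftpc (circles) and to Scgb1a1 (squares) within its library, on a log axis with a line at 1. Ltf, with 1 read at P7, is left out. Bpifa1 lies at 11.4 and 7.68, Lyz1 at 0.505 and 0.341, and Lyz2, Reg3g and Lrg1 lie right of 1 against both references.

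For the 8 defence genes that reached 10 RPKM in either library, which leaves out Slpi and Ltf, the nearest genes in both values of log2(RPKM + 1) were sought over these 2 libraries, leaving out Gm-numbered and Rik names. Nearest to Bpifa1 was Prmt8, an arginine methyltransferase (0.918 and 24.0 RPKM), and then, at 0.75 log2 units, Nrn1 (1.33 and 13.0). Nearest to Reg3g were the noncoding RNA Neat1 (14.6 and 49.4 RPKM) and the chaperone gene Dnajb1 (12.1 and 38.6). Nearest to Lrg1 were Cyp2b10 (6.65 and 21.8 RPKM) and Hnmt (6.90 and 16.5), and nearest to Bpifb1 were Ang, a secreted ribonuclease (8.96 and 17.7), and Tspan12 (8.85 and 17.9). Wfdc2 lay nearest to Lamp3, a lamellar body gene (227 and 334 RPKM), and Sod1 (276 and 383). Lcn2 lay nearest to Dram1 (155 and 184 RPKM) and Calm2 (153 and 184). Nearest to Lyz1 were Slc34a2 (978 and 1115 RPKM) and Cbr2 (688 and 1170), at 0.71 and 0.73 log2 units. Nearest to Lyz2 were Rn45s (2995 and 5978 RPKM) and Cxcl15 (1012 and 1820), at 0.87 and 1.81 log2 units.

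**Figure D4:**
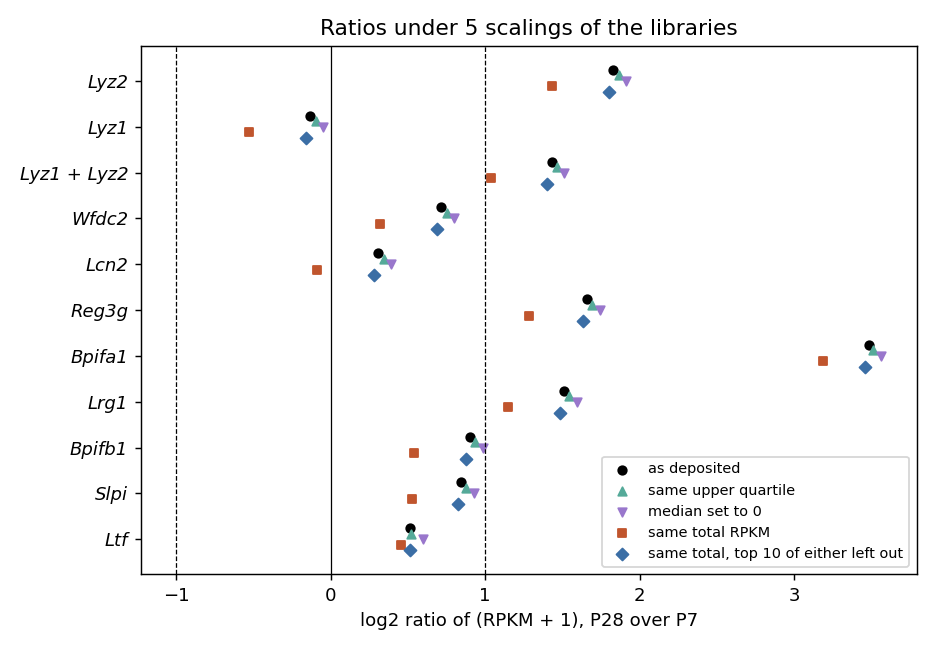
Log2 ratio of (RPKM + 1), P28 over P7, for each gene and for the summed lysozymes under 5 scalings of the libraries, with a solid line at 0 and dashed lines at 2-fold. Equal totals (squares) moved the abundant genes left by about 0.40, which turned Lcn2 from 0.31 to -0.086, while Bpifa1, Lyz2, Reg3g, Lrg1 and the lysozyme sum stayed right of the 2-fold line under all 5.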

How the data were processed

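RPKM values were deposited by the authors, 1 column per sample and 24369 rows, per the file headers. TopHat, TopHat2 2.0.9, GRCm38 and mm10 stand in the submitters' processing notes, without role or order. The program that counted reads, with its annotation and strand setting, was not given in the sources used here. Per the labels' protocols, total RNA was reverse transcribed and made into Nextera XT libraries for paired reads. The 10 genes and all lists were chosen with earlier results of these data known.

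Low RPKM values times the RefSeq-linked transcript length (GENCODE M21) lay within 0.05 of whole steps in 50.2% (P7, 3885 low genes) and 48.7% (P28, 3726 low genes) of cases, beside 10% by chance for a step fixed in advance. The step was sought as the one with the largest such share, so these shares are fitted values and no test. The step of 0.0568 RPKM on 1 kilobase at P7 and 0.0407 at P28 was taken as 1 read. That length, adopted after seeing the data in place of the mean of transcript lengths, gave 45.0 and 130.0 reads for Slpi and 1.00 and 31.0 for Ltf. The other 8 genes, with more reads, were not within 0.05 of whole in both libraries, so their read numbers are approximate. Bpifb1 has 2 such lengths and took their mean. Reads amplified without molecular identifiers are no independent molecules, so intervals and floors of 3 reads cover counting error only.

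Log2 ratios use a pseudocount of 1 RPKM, which understates low genes, over genes that reached 1 RPKM in either library, with calls at 2-fold. Plain ratios carry the intervals. Named genes are the 10 genes, Sftpc and Scgb1a1, the 2 nearest genes, and genes picked per list. Those picked per list are among the 4 (or fewer) with the largest absolute ratio that reached 5 RPKM. Some genes that this rule picks, mainly from the marker lists, are not named. Named after values were seen were Wfdc1, Pltp, Saa3, Cxcl17, Tff2, Rnase4, Prdx6, Il17ra, Stat3, Scnn1a, Scnn1b, Eng, Elane, S100a8, Csf1r, Cd68, Xist, Ddx3y, the locus neighbours and genes named as being at 0. Of 13 marker lists, those not described in the results summed to 18049 and 31549 RPKM (type 2), 307 and 312 (ciliated), 3.21 and 3.10 (lymphoid), 508 and 292 (type 1), 57.6 and 31.5 (fibroblast), 48.0 and 1.75 (erythroid), 0.561 and 0.214 (basal and neuroendocrine) and 0.306 and 0.113 (gut and salivary) at P7 and P28. Steps, calls and intervals were tested on simulated data whose gene lengths were known exactly, unlike the lengths here. Python 3.11.15, SciPy 1.17.1 and Biopython 1.88 were used.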

Additional observations from a re-analysis of the deposited data

How the results depend on the processing

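No paired analysis was possible because each age has 1 library, and no replicate could be left out. Of the 9 genes that reached 1 RPKM, 4 were at least 2-fold higher and 0 lower under every alternative but a pseudocount of 0.1, which added Slpi (5 higher). Ltf, under that limit, had a log2 ratio of 2.21 there. With equal totals the log2 ratios were -0.53 (Lyz1), 1.43 (Lyz2), -0.086 (Lcn2), 1.28 (Reg3g), 0.54 (Bpifb1), 1.15 (Lrg1), 0.32 (Wfdc2) and 1.04 (summed lysozymes). With the median set to 0 they were -0.050 (Lyz1), 1.91 (Lyz2), 0.39 (Lcn2), 0.80 (Wfdc2) and 1.51 (sum). With equal upper quartiles they were -0.10 (Lyz1), 1.86 (Lyz2) and 1.47 (sum), and with equal totals without the 10 most abundant genes of either library (11 in all) 1.80 (Lyz2) and 1.40 (sum). A pseudocount of 5 gave 1.43 (Reg3g), 2.16 (Bpifa1), 0.70 (Bpifb1) and 1.13 (Lrg1), and one of 0.1 gave 4.24 (Bpifa1). Over all genes, 114 higher and 189 lower became 226 and 530 (pseudocount 0.1), 39 and 34 (pseudocount 5), 65 and 443 (equal totals) and 73 and 93 (5 RPKM or more). Lyz2 over Lyz1 in read numbers, not per length, was 2.17 at P7 and 8.45 at P28. Recovered reads depend on the transcript length: with the mean length or the union of exons, P7 reads went from 182 to 338 or 500 (Reg3g), 272 to 374 or 589 (Bpifb1), 3491 to 2164 or 4687 (Wfdc2) and, with the union, 2547 to 7300 (Lcn2). RPKM ratios do not change with it. These log2 shifts follow from how each alternative is built. Depth limits Ltf most, with 1 read at P7, and then Bpifa1 with 21.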
